A study of Mus musculus with 3 samples.

Results

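Dendritic cells and macrophages instruct T cells through surface ligands as well as through antigen, and 10 genes of such molecules are described here: the costimulatory pair Cd80 and Cd86, the activating receptor Cd40, the maturation marker Cd83, the checkpoint ligands Cd274 (PD-L1) and Pdcd1lg2 (PD-L2), the ICOS ligand Icosl, the TNF-family ligands Tnfsf4 (OX40L) and Tnfsf9 (4-1BBL), and the inhibitory ligand Cd200. They were chosen as a named list, by gene symbol, and all 10 of 10 were found among the 27998 genes of the matrices. CD40 is itself a receptor, which T cells engage with CD40 ligand, and its signal is known to raise the expression of costimulatory ligands in dendritic cells. The question followed was at which level each gene stood in each phagocyte class of Peyer's patches, the lymphoid follicles of the small intestine, and how these levels differed after injection of CpG or R848.

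The cells were CD11c+ phagocytes of female C57BL/6Rj mice, sorted from Peyer's patches as cDC1 and cDC2 (conventional dendritic cells of types 1 and 2), LysoDC (dendritic cells of monocyte origin, rich in lysozyme) and macrophages, and measured by droplet single-cell RNA sequencing. The Control library came from untreated mice that received no injection, so an effect of the injection itself cannot be told apart from that of the agonist. The other libraries came 9 h after an injection into the peritoneum, of 125 µg CpG, DNA that stimulates TLR9, or of 10 µg R848, which stimulates TLR7. Each library pooled the cells of 12 mice (88, 85 and 90 patches for Control, CpG and R848), so there was 1 library per group and no replicate, and no test of the agonists was possible. All intervals are 95% intervals of counting error and say nothing of the spread between mice.

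Naive T cells need a second signal beside antigen, and CD80 and CD86 give it through CD28 while CTLA-4 competes for the same ligands. PD-L1 and PD-L2 engage PD-1 and dampen the T cell. ICOS ligand, OX40 ligand and 4-1BB ligand act on T cells that are already activated, ICOS ligand with a known role in help for B cells, and CD200 acts on the inhibitory receptor CD200R of myeloid cells. In lymphoid tissue, dendritic cells that mature switch on the migration receptor Ccr7 together with many of these ligands, both at rest and after Toll-like receptor stimulation.

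The libraries held 43537067, 43767864 and 46556726 UMIs (unique transcript molecules) in 5344, 5049 and 5133 barcodes for Control, CpG and R848, and 5079, 4821 and 4898 cells were kept. Between 33 and 42 barcodes were shared by any pair of libraries. Each cell was placed by its own marker genes, none of them among the 10: mature dendritic cells by genes such as Ccr7, Fscn1 and Ccl22, resting cDC1 and cDC2 by their lineage markers, and lysozyme-high cells. By Cd4, Timd4 and Vcam1, lysozyme-high cells were called macrophages (at or above a limit) or LysoDC (without a UMI of them). Lysozyme-high cells that held these genes under the macrophage limit were in neither class, and numbered 688, 466 and 721 in Control, CpG and R848. The gates held 1664, 410 and 336 resting cDC2, 356, 2781 and 2247 mature dendritic cells, 601, 241 and 387 LysoDC and 660, 506 and 646 macrophages. Resting cDC1 numbered 341 in Control against 10 and 2 with the agonists, too few to compare. Ccr7 stood at 2103 to 4491 CPM (the UMIs of a gene per 1000000 UMIs of its class) in mature cells and at 65.6 CPM or less in resting cDC2, and C1qa at 7063 CPM or more in LysoDC and macrophages; both genes were used by the gates, so these values describe the classes and are no check of their names. Of genes the gates did not use, the MHC class II gene H2-Ab1 stood at 1483 CPM or more in all 4 classes of every library, and Itgax, the gene of the sorted CD11c, at 67.7, 15.1 and 17.7 CPM in mature cells and at 169.7 CPM or more in the other 3 classes. Markers of B cells summed to between 32.1 and 46.2 CPM in mature dendritic cells, against 5749 to 6588 CPM in the cells gated as B lineage.

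Cd274 and Pdcd1lg2 are neighbours on mouse chromosome 19 (mm10, at 29367455 to 29388095 and 29410919 to 29471161, both on the plus strand), with 22823 bases between them. Cd80 (38455561 to 38496335, plus strand), Cd86 (36603869 to 36666081, minus strand) and Cd200 (45382135 to 45409053, minus strand) all lie on chromosome 16. The other members lie on chromosomes 2 (Cd40), 13 (Cd83), 10 (Icosl), 1 (Tnfsf4) and 17 (Tnfsf9). All 10 are protein-coding. Cd274, Pdcd1lg2 and Tnfsf9 each overlap 1 annotated gene on the opposite strand, so reads of the partner could be told apart only if the counting used strand. RefSeq promoter windows (GRCm38.p6) were matched for 5 of the 10 members. The 250 bases before the annotated start are shown for the neighbouring pair, whose levels went together across classes and libraries, and for Cd200, which had the largest ratio of the 10 to Control in mature cells, 5′ to 3′ on the gene's strand. Capitals mark a match to a loose kappa B pattern, GGG and CC with any 5 bases between them.
Cd274 (chr19:29367188-29367437, plus strand): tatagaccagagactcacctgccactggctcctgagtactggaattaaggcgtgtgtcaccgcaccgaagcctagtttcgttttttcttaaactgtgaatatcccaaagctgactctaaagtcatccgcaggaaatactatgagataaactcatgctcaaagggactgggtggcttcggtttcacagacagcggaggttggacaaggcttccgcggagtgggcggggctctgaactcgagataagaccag
Pdcd1lg2 (chr19:29410669-29410918, plus strand): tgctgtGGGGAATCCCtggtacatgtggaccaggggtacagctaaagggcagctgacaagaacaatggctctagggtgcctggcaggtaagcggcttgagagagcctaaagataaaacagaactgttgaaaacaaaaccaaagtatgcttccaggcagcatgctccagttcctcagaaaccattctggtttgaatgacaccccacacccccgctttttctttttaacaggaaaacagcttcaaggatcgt
Cd200 (chr16:45409054-45409303, minus strand): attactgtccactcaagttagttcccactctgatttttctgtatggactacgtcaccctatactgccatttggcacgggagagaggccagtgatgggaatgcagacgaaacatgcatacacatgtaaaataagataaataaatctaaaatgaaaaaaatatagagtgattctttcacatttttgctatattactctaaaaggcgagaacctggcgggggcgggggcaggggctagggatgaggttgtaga
The match of Pdcd1lg2 begins 244 bases before the start, and neither Cd274 nor Cd200 holds one. On either strand this loose pattern occurred in 3 of the 5 member windows and in 45.8% of all 32851 promoter windows of that length. The core of the interferon-stimulated response element, GAAA repeated with any 2 bases between, occurred in none of the 5 and in 2.98% of all windows. The exact kappa B consensus occurred in none and in 0.14%. No match says only that these letters are not in the window.

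**Figure D1:**
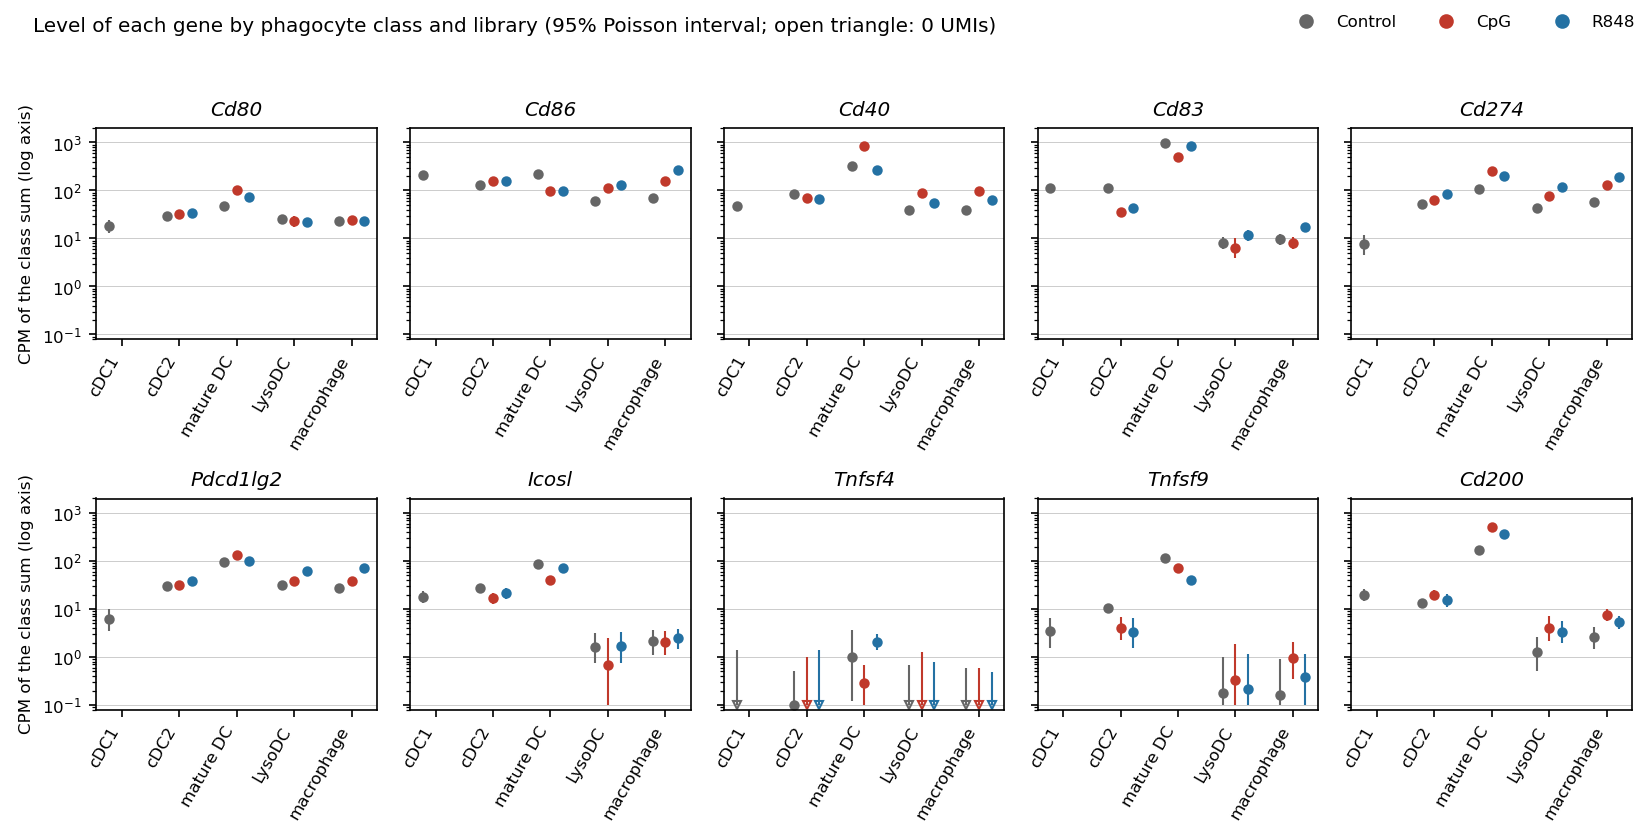
Level of each gene (vertical axis, CPM of the summed UMIs of a class, log axis) in 5 phagocyte classes (horizontal axis) for the Control, CpG and R848 libraries. Points are 1 library each, bars are 95% exact Poisson intervals, open triangles at the bottom stand for 0 UMIs, and values or intervals under 0.1 CPM are drawn at 0.1; the treated cDC1 groups, with 10 and 2 cells, are not drawn. Cd83, Tnfsf9, Cd200 and Icosl stand highest in mature dendritic cells of every library, while Cd86 stands highest there in Control only.

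Of the classes compared, mature dendritic cells stood highest for 9 of the 10 genes in all 3 libraries, and Cd86 was the exception; their interval overlapped that of the next class for Tnfsf4 in each library and for Cd274 with R848. In Control, Cd83, an immunoglobulin-superfamily protein that marks mature dendritic cells, stood at 977 CPM in mature cells (934 to 1022), 112 CPM in cDC1, 111 CPM in cDC2, 9.73 CPM in macrophages and 8.16 CPM in LysoDC. The intervals of the cDC1 and cDC2 levels overlapped, as did those of macrophages and LysoDC. Within Control, mature cells exceeded resting cDC2 12.3-fold for Cd200 (10.1 to 15.1), 10.7-fold for Tnfsf9 (8.51 to 13.5), 8.77-fold for Cd83 (8.16 to 9.43), 3.82-fold for Cd40, 3.25-fold for Icosl, 3.10-fold for Pdcd1lg2, 2.03-fold for Cd274, 1.66-fold for Cd86 and 1.60-fold for Cd80. Cd274 and Pdcd1lg2 were low in resting cDC1, at 7.58 and 6.06 CPM, where every other class of Control stood at 43.7 CPM or more for Cd274 and 27.6 CPM or more for Pdcd1lg2. Control cDC1 in turn held 206 CPM of Cd86 (189 to 224), a level whose interval overlapped that of mature cells.

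In the lysozyme-high classes, LysoDC and macrophages, 5 of the 10 genes stood well above the level that free RNA would give, 4 stood near it and Tnfsf4 was not found. Cd83, Icosl, Tnfsf9 and Cd200 were at 17.4 CPM or less in LysoDC and macrophages of every library. Free RNA, estimated at 4.36%, 2.53% and 3.75% of UMIs for Control, CpG and R848 from the C1q complement genes found in mature cells, would by itself give 4.94, 5.93 and 10.9 CPM of Cd83, and LysoDC held 8.16, 6.45 and 11.6 CPM. For Cd200 free RNA would give 0.744, 5.85 and 4.44 CPM, against 1.27, 4.07 and 3.39 CPM in LysoDC. Of the 24 levels of Cd83, Icosl, Tnfsf9 and Cd200 in these 2 classes, 8 had an interval above that estimate. They were Cd83 in macrophages of all 3 libraries, at 9.73 CPM in Control (7.43 to 12.5), 8.08 with CpG (6.01 to 10.6) and 17.4 with R848 (14.5 to 20.6), and in Control LysoDC (5.95 to 10.9). The others were Icosl in macrophages of all 3 libraries, at 2.11, 2.06 and 2.46 CPM against 0.749, 0.531 and 0.997 CPM of free RNA, and Cd200 in Control macrophages, at 2.60 CPM (1.48 to 4.22). No difference between libraries is read from levels this near to it. Cd80, Cd86, Cd40, Cd274 and Pdcd1lg2 stood at 21.6 CPM or more in both lysozyme-high classes of every library, above free RNA.

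Libraries were compared within a class where a gene reached 20 CPM and 20 UMIs in at least 1 of them; such a gene is called measured here, and counted as different at 2-fold or more on log2(CPM + 5). In mature dendritic cells 9 of the 10 members were measured, all but Tnfsf4. With CpG 4 stood at least 2-fold higher than in Control (Cd80, Cd40, Cd274 and Cd200) and 2 at least 2-fold lower (Cd86 and Icosl), where 8.62% of all 4526 genes measured were higher and 5.79% lower. With R848 1 stood higher (Cd200) and 2 lower (Cd86 and Tnfsf9), against 5.56% and 5.90% of 4405 genes. Between the agonists 1 stood lower with R848 (Cd40) and none higher, against 3.45% and 1.21% of 4295 genes. The median log2 ratio of the 9 was 0.49 for CpG and -0.22 for R848 against Control, where that of all measured genes was 0.13 and 0.00. Several stood near the limit, with log2 ratios of 1.03 for Cd80, -1.02 for Icosl and -0.94 for Cd83 with CpG, and 0.91 for Cd274 with R848.

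**Figure D2:**
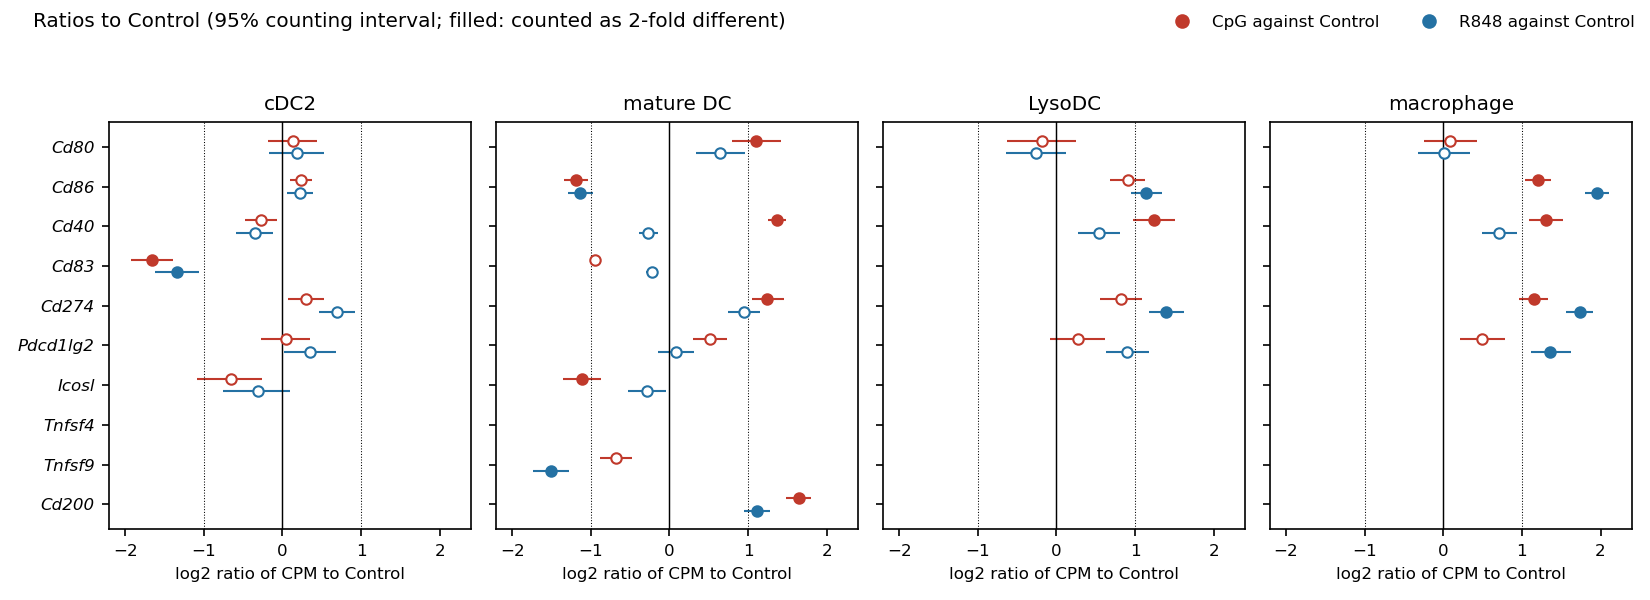
Log2 ratio of CPM in the CpG and the R848 library to the Control library (horizontal axis) for each gene measured (vertical axis) in 4 classes. Bars are 95% counting intervals, filled points are counted as 2-fold different and dotted lines mark a 2-fold ratio. Cd86 lies to the left of 0 in mature dendritic cells and to the right in LysoDC and macrophages, and Cd83 lies to the left in cDC2.

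Cd40 separated the agonists in mature dendritic cells. It stood at 323 CPM in Control (299 to 349), 835 CPM with CpG (822 to 849) and 268 CPM with R848 (260 to 277), so CpG was 2.59-fold above Control (2.39 to 2.80) and R848 0.830-fold of Control (0.763 to 0.904). The R848 level was 3.11-fold below the CpG level (3.002 to 3.23). Cells with a Cd40 UMI, each cell thinned to 3000 UMIs, made up 43.9%, 73.9% and 46.6% of mature cells (56.7%, 86.1% and 62.0% without thinning). Between Control and R848 the Cd40 share and level went in opposite directions, so no order is read from those 2 libraries. Cd40 was also higher with CpG in 2 groups of mature cells split by a lineage marker. Cells with an Xcr1 UMI and no Sirpa UMI, which marks cDC1, stood at 195 CPM in Control, 1068 with CpG and 279 with R848. Those with Sirpa and no Xcr1 stood at 256, 689 and 225 CPM. The Xcr1 groups held 50, 47 and 169 cells, and the groups were not matched for mature markers.

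Cd200, which marks many mature dendritic cells and restrains myeloid cells through CD200R, had 166 CPM in Control, 517 with CpG and 357 with R848. Both agonist libraries lay above Control, 3.12-fold with CpG (2.80 to 3.50) and 2.16-fold with R848 (1.93 to 2.42). A Cd200 UMI was found in 32.7%, 67.1% and 57.3% of thinned mature cells, against 0.184%, 0.889% and 0.529% of thinned LysoDC, which serve as a measure of background (median depths 5076, 5660 and 5430 UMIs in mature cells and 9375, 12365 and 12385 UMIs in LysoDC). Without thinning the shares were 44.4%, 79.6% and 72.1%, and 1.16%, 4.98% and 4.13%. Cd274, the PD-L1 gene, stood at 106, 252 and 205 CPM in mature cells, 2.37-fold above Control with CpG (2.07 to 2.74) and 1.93-fold with R848 (1.67 to 2.22). Pdcd1lg2 stood at 94.8, 136 and 100.2 CPM, with CpG 1.43-fold above Control (1.23 to 1.67) and R848 at 1.06-fold (0.907 to 1.24), an interval that includes 1.

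Over all mature cells, Cd80 stood above Control and Cd86 below it in both agonist libraries. Cd80 had 47.7, 102 and 74.6 CPM in the Control, CpG and R848 libraries, which is 2.14-fold above Control with CpG (1.74 to 2.66) and 1.56-fold with R848 (1.27 to 1.95). The higher Cd80 depended on the range of mature markers: at 100 to 150 marker UMIs per 10000 the CpG level was 1.04-fold and the R848 level 0.917-fold of Control, and at 150 to 200 they were 1.64-fold and 1.52-fold. Cd80 with CpG stayed past 2-fold in 6 of 12 alternatives. Cd86 stood at 219, 96.0 and 99.6 CPM, 2.28-fold below Control with CpG (2.05 to 2.53) and 2.20-fold below with R848 (1.97 to 2.45). The CpG and R848 levels of Cd86 had overlapping intervals. Relative to resting cDC2 of the same library, mature cells held 1.66-fold the Cd86 level in Control, but 0.618-fold with CpG (0.562 to 0.681) and 0.646-fold with R848 (0.578 to 0.723). The share of thinned mature cells with a Cd86 UMI was 39.6%, 19.8% and 22.4%.

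Icosl stood at least 2-fold lower than in Control with CpG, and Tnfsf9 with R848. Icosl, whose product engages ICOS on T cells, stood at 86.8, 40.1 and 71.0 CPM in mature cells, 2.16-fold below Control with CpG (1.82 to 2.56), with an R848 level 1.22-fold below (1.03 to 1.44). Tnfsf9, which costimulates T cells through 4-1BB, stood at 114, 71.1 and 40.0 CPM, 1.60-fold below Control with CpG (1.38 to 1.85) and 2.84-fold below with R848 (2.43 to 3.33). Without the mature cells that had an Il6 or Il12b UMI, the log2 ratio of Tnfsf9 turned to 0.09 with CpG and was -0.85 with R848, no longer past 2-fold, and that of Icosl with CpG was -0.72. The share of thinned mature cells with an Icosl UMI was 16.8%, 10.8% and 18.5%, and that for Tnfsf9 was 14.9%, 14.3% and 9.31%. Since the Icosl share with R848 lay above that of Control while the level lay below, no order is read from those 2 libraries. Cd83 stood at 977, 508 and 836 CPM, 1.92-fold below Control with CpG (1.83 to 2.02) and 1.17-fold below with R848 (1.11 to 1.23). The share of thinned mature cells with a Cd83 UMI was higher with R848 than in Control, so for Cd83 too no order is read from those 2 libraries.

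Tnfsf4, the OX40 ligand gene, was near the limit of detection. The mature cells of Control had 2 of its UMIs, those of CpG 5 and those of R848 28, or 1.003, 0.291 and 2.08 CPM. Resting cDC2 of Control held 1 UMI, and the CpG and R848 cDC2 held none, which allows up to 0.817 and 1.13 CPM, with 3 counts taken as the bound. LysoDC and macrophages of every library held none, which allows up to 1.02 CPM in CpG LysoDC and less elsewhere. Of the 28 UMIs with R848, 23 lay in the 161 mature cells with a UMI of Il12b, the gene of the interleukin-12 p40 chain, which puts those cells at 19.4 CPM (12.3 to 29.0) against 0.408 CPM (0.133 to 0.953) in the 2086 cells without one. In the 287 such cells of CpG the level was 1.64 CPM (0.338 to 4.78), and in the 53 of Control no UMI was found.

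The mature class of Control differed from those of the agonists in lineage markers and in its range of mature markers. Control mature cells had more Xcr1, with 86.3 CPM against 4.94 (CpG) and 27.2 (R848). They also had more Sirpa, with 40.1 CPM against 24.5 (CpG) and 23.4 (R848). The part of lineage in the Cd86 and Cd274 differences was not tested. Of the 356 Control cells 160 lay between 50 and 100 mature-marker UMIs per 10000, against 215 of 2781 with CpG and 222 of 2247 with R848. Comparison at a matched range of 100 to 200 was chosen after these values were seen. It kept Cd274 with CpG (log2 ratio 1.05), Cd200 with CpG (1.27) and Cd86 with CpG (-1.16) and R848 (-1.10) past 2-fold. Cd40 with CpG then stood at 0.87, Cd80 with CpG at 0.42 and Cd200 with R848 at 0.85, so these 3 no longer passed. Icosl stood at -1.48 with CpG, Cd83 at -1.26 with CpG, and Tnfsf9 at -1.51 with CpG and -2.18 with R848, all past 2-fold. With CpG 6 members thus passed as before, but 2 of them higher and 4 lower, where all mature cells gave 4 and 2. The Tnfsf9 and Cd86 results came from the lower part of the range. At 100 to 150 Tnfsf9 stood at 0.172-fold of Control with CpG and 0.0764-fold with R848. At 150 to 200 it was within 2-fold with both, close to Control with CpG and 0.627-fold with R848. Cd86 stood at 0.376-fold with CpG and 0.382-fold with R848 at 100 to 150, and at 0.684-fold and 0.730-fold at 150 to 200. Over 100 to 200 the log2 ratio of Cd40 for R848 against CpG was -1.35. With limits made stricter by a factor of 2, which left 196 Control mature cells, the log2 ratios of Cd86 were -0.73 with CpG and -0.75 with R848, that of Cd40 with CpG 0.87 and that of Cd200 with R848 0.72, none past 2-fold.

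**Figure D3:**
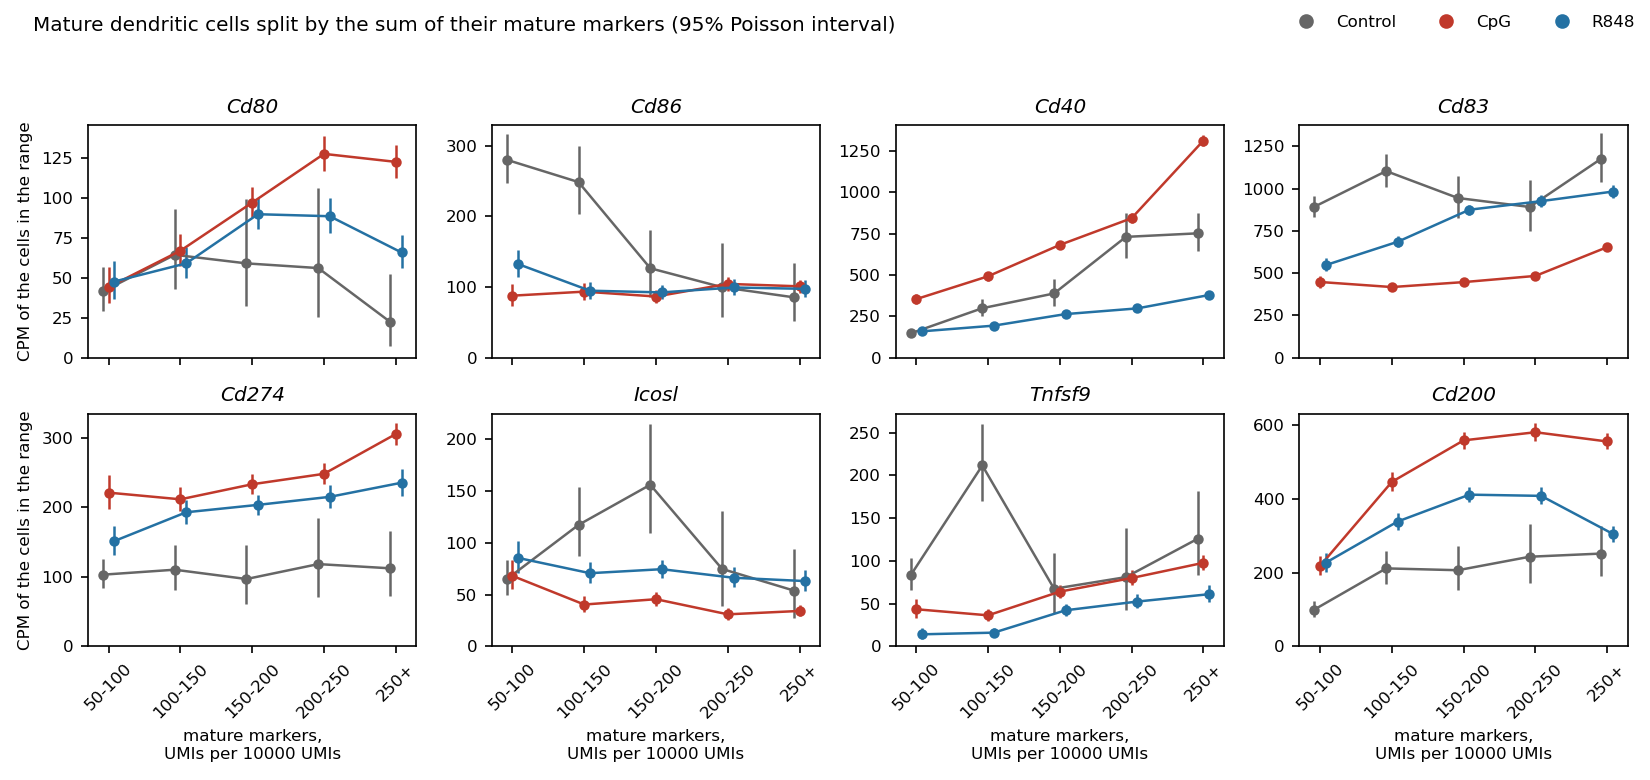
Level of 8 genes (vertical axis, CPM, starting at 0) in mature dendritic cells split by the summed UMIs of their mature markers per 10000 UMIs (horizontal axis), for the Control, CpG and R848 libraries. Points are sums over the cells of a range in 1 library and bars are 95% exact Poisson intervals. Cd40 is higher at each step in all 3 libraries, and Cd86 of Control comes down to the level of both agonist libraries at high marker sums.

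Along that range Cd40 was higher at the top than at the bottom in all 3 libraries. It was at 147 CPM in Control, 354 with CpG and 160 with R848 in cells with 50 to 100 marker UMIs, and at 751, 1311 and 379 CPM in those with 250 or more. Control Cd86 went the other way, from 280 CPM (247 to 316) at 50 to 100 to 85.5 CPM at 250 or more, while both agonist libraries stayed between 86.6 and 132 CPM in all 5 ranges. At 200 to 250 the 3 libraries held 99.8, 104 and 99.4 CPM of Cd86. The Control ranges above 150 held 46, 29 and 35 cells. Cells with an Il6 UMI numbered 50, 1268 and 267 in Control, CpG and R848. Their Cd40 stood at 563, 915 and 335 CPM, against 283, 760 and 258 CPM in mature cells without one, and Tnfsf9 of the Control cells with Il6 at 329 CPM against 78.3 CPM without. With Il12b, Control cells held 323 CPM of Tnfsf9, against 66.9 CPM without, while CpG cells held 67.7 and 71.5 CPM.

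Single mature cells commonly carried several of the 10. Thinned to 3000 UMIs, the median mature cell had a UMI of 3 members in each library, and 53.5%, 75.4% and 66.8% of mature cells in Control, CpG and R848 had at least 3. Among resting cDC2 10.9%, 11.1% and 8.76% had at least 3. Among macrophages these shares were 1.42%, 7.24% and 14.6%, and among LysoDC 1.47%, 4.00% and 6.08%. Macrophages without any of the 10 made up 52.7% in Control, 27.6% with CpG and 15.4% with R848, and LysoDC without any 55.6%, 39.1% and 31.2%. Free RNA of the 10 genes, at 19.3, 34.5 and 37.9 CPM in all, would by itself give a UMI to 5.61%, 9.82% and 10.7% of cells of this depth in Control, CpG and R848, so part of the cells with a UMI of the 10 need not express them.

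**Figure D4:**
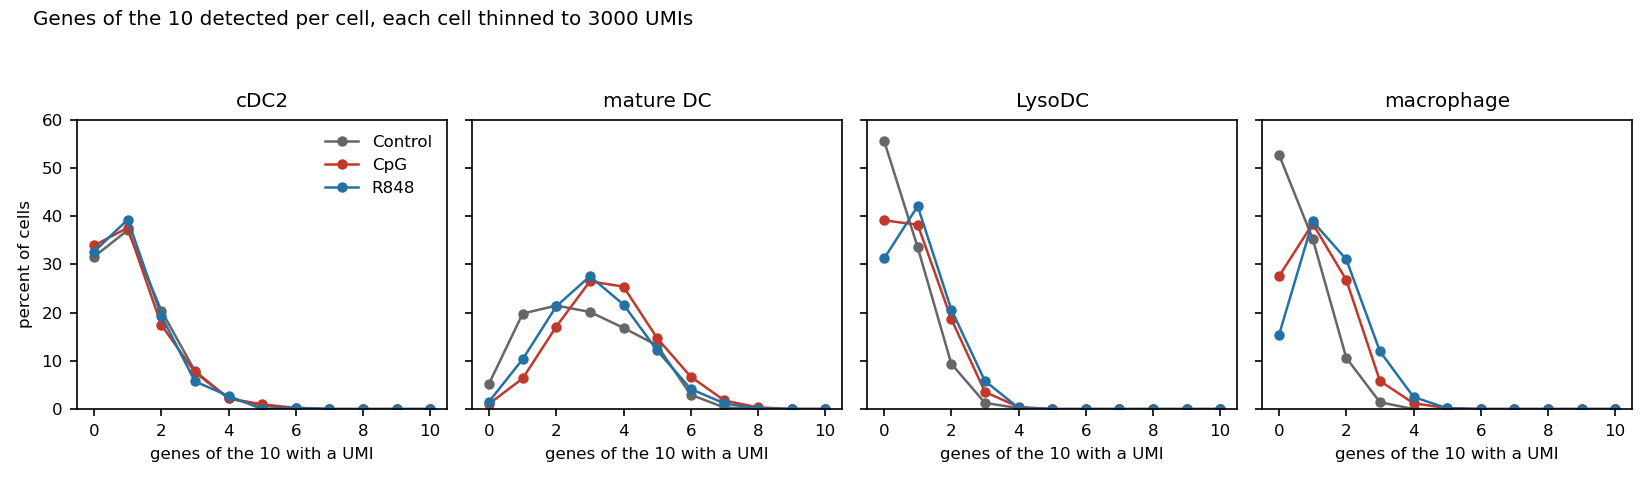
Percent of cells (vertical axis) by the number of the 10 genes with at least 1 UMI (horizontal axis), each cell thinned to 3000 UMIs, in 4 classes and 3 libraries. The cDC2 curves of the 3 libraries lie close together, the curves of mature dendritic cells peak at 2 to 3 genes, and those of LysoDC and macrophages lie further to the right in the agonist libraries than in Control.

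Within mature cells a UMI of the ICOS ligand Icosl was less often found with the PD-1 ligand Pdcd1lg2 than without it. In Control only 6 cells held both. A UMI of Icosl was found in 11.3% of Control cells with Pdcd1lg2 and 18.0% of those without, in 5.80% and 12.8% with CpG, and in 12.3% and 20.3% with R848. Cd80 and Tnfsf9 were found together: Tnfsf9 was present in 30.6% of Control cells with Cd80 and 12.7% of those without, in 27.7% and 10.7% with CpG, and in 19.0% and 7.50% with R848. The CD28 ligands were also found together with Cd86 in 58.3% and 37.1% of Control cells with and without Cd80, 31.9% and 16.6% with CpG, and 33.3% and 20.3% with R848. Of the neighbours Cd274 and Pdcd1lg2, Pdcd1lg2 was found in 28.0% and 14.0% of Control cells with and without Cd274, and in 30.3% and 27.2% with CpG and 24.1% and 22.2% with R848, so the shares lay apart in Control and close together with the agonists. These shares describe cells of 1 library each, and no test was made.

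In resting cDC2 most of the genes measured stayed within 2-fold of Control. Of the 10, 7 were measured, and with either agonist 1 stood at least 2-fold lower than in Control (Cd83) and none higher. Among all 4935 genes 0.993% were lower and 2.74% higher with CpG, and 0.892% and 1.72% with R848. Cd83 stood at 111 CPM in Control (105 to 118), 35.4 CPM with CpG and 44.0 CPM with R848, 3.15-fold lower (2.62 to 3.80) and 2.53-fold lower (2.09 to 3.09). When cDC2 were taken from clusters in place of gates, the log2 ratio of Cd83 with R848 was -0.30 and no longer past 2-fold. The median ratio of all genes in cDC2 was 0.17 and 0.19 on the log2 scale, and 0.01 and 0.02 with median-of-ratios scaling. Between the agonists no member differed 2-fold, against 0.08% of 5003 genes higher and 0.32% lower with R848. Cd86 stood at 132, 155 and 154 CPM, Cd40 at 84.5, 70.0 and 66.2 CPM, and Cd274 at 52.4, 64.6 and 84.6 CPM. Within 2-fold, Icosl with CpG was at 0.633-fold of Control (0.473 to 0.835) and Cd274 with R848 at 1.62-fold (1.38 to 1.89). Tnfsf9, too low to be counted as measured, had 114, 15 and 9 UMIs. It stood at 0.384-fold of Control with CpG (0.208 to 0.660) and 0.318-fold with R848 (0.142 to 0.626). The cDC2 marker Cd209a itself stood at 138, 1.36 and 12.0 CPM, so the resting cDC2 compared were not alike in other genes, and the part of this in the Cd83 difference was not tested.

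LysoDC and macrophages of both agonist libraries held more Cd86, Cd40 and Cd274 than those of Control, each with a ratio interval above 1. In macrophages 5 of the 10 were measured. With CpG 3 stood at least 2-fold higher than in Control (Cd86, Cd40 and Cd274) and none lower, against 3.49% and 0.769% of 4809 genes. With R848 3 stood higher (Cd86, Cd274 and Pdcd1lg2) and none lower, against 5.55% and 2.22% of 5008 genes. Between the agonists none differed 2-fold, against 1.79% higher and 0.832% lower with R848 among 4927 genes. In LysoDC 5 were measured, and 1 stood higher with CpG (Cd40) and 2 with R848 (Cd86 and Cd274), with none lower. The shares of all genes in LysoDC were 2.81% higher and 0.559% lower with CpG, 3.50% and 1.36% with R848, and 1% and 0.565% for R848 against CpG, where no member differed 2-fold.

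Cd86 in macrophages stood at 68.6 CPM in Control (62.2 to 75.5), 158 CPM with CpG (148 to 168) and 266 CPM with R848 (254 to 277), or 2.30-fold (2.05 to 2.58) and 3.87-fold above Control (3.48 to 4.31). In LysoDC it stood at 59.1, 111 and 131 CPM, 1.88-fold (1.61 to 2.19) and 2.21-fold above Control (1.93 to 2.54). Macrophages thus held the highest Cd86 level of the R848 library, while mature cells held the lowest of the 4 classes. Cd274 stood at 57.4, 127 and 191 CPM in macrophages, 2.22-fold (1.95 to 2.52) and 3.33-fold above Control (2.96 to 3.75), and at 43.7, 77.4 and 115 CPM in LysoDC. With R848 the Cd274 interval of macrophages (181 to 201) overlapped that of mature cells (197 to 212). Pdcd1lg2 stood at 27.6, 39.0 and 70.9 CPM in macrophages, 1.41-fold (1.16 to 1.73) and 2.57-fold above Control (2.16 to 3.07), and at 32.3, 39.0 and 60.4 CPM in LysoDC.

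Cd40 ordered the agonists the other way round from Cd86 and Cd274 in these cells, with CpG above R848. It stood at 39.3, 96.9 and 64.4 CPM in macrophages and at 38.3, 90.3 and 55.7 CPM in LysoDC, with CpG 2.47-fold (2.12 to 2.88) and 2.36-fold (1.96 to 2.84) above Control. R848 stood 1.51-fold below CpG in macrophages (1.34 to 1.70) and 1.62-fold below in LysoDC (1.36 to 1.93). Free RNA would give 3.10, 10.7 and 5.04 CPM of Cd40. Cd80 was level in both classes, at 23.2, 24.7 and 23.3 CPM in macrophages and 25.8, 22.7 and 21.6 CPM in LysoDC, with all 4 ratio intervals against Control including 1 (lowest bound 0.644, highest 1.35).

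Lysozyme-high cells that also carried mature markers, numbering 28, 34 and 182 in Control, CpG and R848, were kept out of both classes. The 182 R848 cells held 160 CPM of Cd83 (143 to 178), 166 CPM of Cd40, 192 CPM of Cd274, 91.9 CPM of Pdcd1lg2 and 95.8 CPM of Cd86. Their Cd80 level of 18.8 CPM (13.3 to 25.7) overlapped those of R848 LysoDC and macrophages. Their Cd200 and Tnfsf9 levels of 22.1 and 0.481 CPM were a small part of those of R848 mature cells.

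Across 14 class sums (the 4 classes of 3 libraries, Control cDC1 and the R848 cells just described), the members with the most similar patterns were Cd274 and Pdcd1lg2, with a Pearson correlation of log2(CPM + 5) of 0.94. Next came Cd83 and Icosl, Cd83 and Cd200, and Tnfsf9 and Cd200, each with 0.92. Cd86 went with none, with correlations between -0.12 and 0.24. These sums share libraries and gates, and the correlations are descriptions. Among the 3579 genes that reached 50 CPM in at least 1 sum, the genes most like Cd40 were Il6, Dll4 and Stx11 (0.97, 0.96 and 0.96), those most like Cd274 were Cflar, Ubxn4 and Pbrm1 (each 0.95), and those most like Cd83 were Nabp1, N4bp2l1 and Birc3 (0.97 each). Icosl was most like Tbc1d4, a gate marker of mature cells, at 0.98.

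Other genes of these pathways were taken as fixed lists. Of 22 other costimulatory and checkpoint ligands, 10 were measured in mature cells with CpG against Control, 4 of them at least 2-fold higher and none lower, where 8.62% of all measured genes were higher and 5.79% lower. They were H2-T23, at 338 against 144 CPM, Pvr, a ligand of DNAM-1 and TIGIT, at 38.6 CPM in Control, 135 with CpG and 72.9 with R848, Ceacam1 at 6.52, 26.5 and 7.29 CPM in that order, and Cd70, the CD27 ligand, at 15.05, 45.2 and 30.1 CPM. With R848, 9 were measured, 1 stood higher (H2-T23, at 351 against 144 CPM) and 2 lower (Cd24a at 28.0 against 87.8 CPM and Cd48 at 45.5 against 135 CPM), where 5.56% of all measured genes were higher and 5.90% lower. Of 10 genes of the members' receptors, 3 were measured in mature cells. Tnfrsf9, the receptor of the Tnfsf9 product, had 53.7 CPM in Control, 404 with CpG (395 to 414) and 77.2 with R848. Tnfrsf4, the receptor of the Tnfsf4 product, stood at 152, 247 and 425 CPM, and Icos, the receptor of the Icosl product, at 31.6, 17.9 and 57.3 CPM. Of these 3, 1 stood at least 2-fold higher than in Control with CpG (Tnfrsf9) and 1 with R848 (Tnfrsf4), and none lower, beside the same shares of all genes.

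Of 8 adaptors of CD40 and TNF receptors, all 8 were measured in mature cells, 1 stood higher with CpG (Traf2, at 124 against 58.2 CPM) and none with R848, and none stood lower, against 8.62% and 5.56% of all measured genes higher and 5.79% and 5.90% lower. In cDC2, LysoDC and macrophages 6 to 7 of the 8 adaptors were measured, and none passed 2-fold in any comparison. Of the 7 genes for shedding and trafficking of the members, 3 to 5 were measured in a class. None of those passed 2-fold in any of the 4 classes. Among all genes 0.08% to 8.62% passed in 1 direction in these comparisons, so none among so few genes is near those shares. In macrophages with R848 against Control, 2 of 7 measured other ligands stood higher, Tnfsf13b (BAFF) at 28.6 against 8.44 CPM and H2-T23 at 580 against 287 CPM, and 1 lower, the checkpoint molecule gene Vsir at 99.0 against 205 CPM, where 5.55% of all measured genes were higher and 2.22% lower.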

How the data were processed

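Single-cell RNA was measured in 3 libraries of Peyer's patch phagocytes. Per the labels' protocols and the submitters' processing notes, the authors aligned reads to mm10 and counted UMIs using Cell Ranger (version 2.0.0). What they deposited are raw UMI counts per gene and barcode, without normalisation. Gene coordinates came from GENCODE M21 (GRCm38) by Ensembl ID.

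Cells with at least 500 genes and at most 10% mitochondrial UMIs were kept, and the highest doublet scores (2 simulated doublets per cell, 50 neighbours, 0.8% per 1000 cells) were removed: 225, 202 and 209 cells. Each cell was gated on the summed UMIs of its markers per 10000 UMIs (109 of 111 listed markers found): mature dendritic cells at 50 or more mature and under 300 lysozyme-high marker UMIs, lysozyme-high cells at 450 or more, cDC1 at 20, cDC2 at 8, macrophages at 2.5 for Cd4, Timd4 and Vcam1. LysoDC were the lysozyme-high cells without a UMI of those 3 genes. The limits were set after the distributions were seen. Of the kept cells 1177, 601 and 877 stayed ungated.

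UMIs were summed per class and library (1993468 to 17193437 UMIs over the 4 classes compared) and scaled to CPM. Levels carry exact Poisson, ratios exact conditional binomial 95% intervals; a count of 0 allows up to 3 counts. No significance test was run, since each group is 1 library. Named genes were the 10 members, the 3 highest and 3 lowest list genes per class with at least 20 CPM, and the 3 genes most like each member; Cd70 and Traf2 were added after their values were seen. The members, lists and comparisons were chosen with earlier results of these data known. The calculation of ratios and their intervals was checked on simulated counts. Tools were Python 3.11.15, numpy 2.4.6, scipy 1.17.1, pandas 2.3.3, scikit-learn 1.9.0 and scanpy 1.11.5. Alternatives were other pseudocounts, minimums, scaling, clusters, stricter gates, a gene minimum, no doublet removal and removal of free RNA.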

Additional observations from a re-analysis of the deposited data

Results flagged for a closer look

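Cd86 stood on opposite sides of Control in different phagocyte classes, past 2-fold on both sides. Against Control its log2 ratio with CpG was 1.14 in macrophages and -1.15 in mature dendritic cells. With R848 it was 1.08 in LysoDC, 1.88 in macrophages and -1.10 in mature dendritic cells. With stricter gates both ratios in mature cells no longer passed 2-fold, at -0.73 with CpG and -0.75 with R848. That with CpG also fell short among cells without an Il6 or Il12b UMI (-0.95), and that with R848 with a pseudocount of 20 CPM. The LysoDC ratio with R848 did not pass with a pseudocount of 20 CPM or with median-of-ratios scaling, and was lowest at 0.93; both macrophage ratios passed in all 10 alternatives. None of the 5 changed sign. In Control mature cells with 250 or more marker UMIs per 10000, Cd86 stood at 85.5 CPM, near the agonist libraries. The difference between classes was not tested, since each library is 1 sample.

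Cells gated as B lineage lie outside the labelled sort, numbered 68, 50 and 77 in Control, CpG and R848, and were not part of any comparison. They held 58.5 CPM of Cd86 with CpG (37.1 to 87.8), against 18.8 CPM in Control (8.11 to 37.0), and 109 CPM of Cd40 with CpG (79.2 to 147), against 39.9 CPM in Control (23.2 to 63.9). With R848 they held 32.6 CPM of Cd86 (19.6 to 51.0) and 29.2 CPM of Cd40 (17.0 to 46.7), both intervals overlapping those of Control. The mature markers Ccr7 and Fscn1 stood at 35.2 and 25.8 CPM in these cells of Control, 229 and 300.2 CPM with CpG and 72.1 and 60.1 CPM with R848, and markers of plasma cells summed to 4437, 16298 and 10240 CPM, so these cells were not alike in other genes, and the part of this in the Cd86 and Cd40 values was not tested.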

How the results depend on the processing

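No paired analysis was possible because each group is 1 library and no replicate exists; for the same reason no replicate could be left out. Of the 21 ratios past 2-fold, none changed sign under any alternative run. All 21 stayed past 2-fold with a pseudocount of 1 CPM, without a CPM minimum, at 50 CPM and with free RNA taken away, 20 without doublet removal, 19 with median-of-ratios scaling and with at least 1000 genes, 18 with Leiden clusters, 16 with stricter gates and 13 with a pseudocount of 20 CPM. The last lowers ratios of low genes by construction. Cd80 with CpG in mature cells lay between 0.42 and 1.14 and passed in 6 of 12 alternatives, and Icosl with CpG between -1.48 and -0.68, in 7 of 12. Cd274 and Cd200 with CpG and Cd40 between the agonists passed in all 12. Of the 10 ratios in mature cells, 7 passed at mature markers of 100 to 200 and 7 among cells without an Il6 or Il12b UMI, both chosen after seeing the data; in the latter Tnfsf9 with R848 stood at -0.85 and with CpG at 0.09.

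Counts of members past 2-fold moved by over 1.5 times as follows, and the cause was not tested except for the pseudocount. With a pseudocount of 20 CPM, LysoDC had 0 with CpG (1 as reported) and 1 with R848 (2), and macrophages 1 with CpG (3). With median-of-ratios scaling LysoDC had 1 with R848 (2). With Leiden clusters cDC2 had 0 with R848 (1) and 1 for R848 against CpG (0), and LysoDC 2 with CpG (1). With stricter gates mature cells had 1 with R848 (3), LysoDC 3 with CpG (1), and macrophages 1 for R848 against CpG (0). That setting also doubled the limit of mature markers, 25 in the main gates, above which lysozyme-high cells were kept out of LysoDC and macrophages. For LysoDC and macrophages it was therefore laxer on mature markers, and whether their moves came from stricter gating was not tested.

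Median-of-ratios scaling moved the share of higher among all genes past 2-fold from 73.4% to 57.1% (CpG) and from 65.9% to 51.2% (R848) in cDC2, from 71.5% to 61.2% in macrophages with R848, and for R848 against CpG from 64.0% to 53.2% in LysoDC and from 26.0% to 41.7% in mature cells. By just under 10 points it moved LysoDC with R848 (72.0% to 62.9%) and mature cells with R848 (48.5% to 58.1%), where the majority turned from lower to higher. Depth limits Tnfsf4, for which every class but mature cells held 1 UMI or none.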

Other observations

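Proliferating cells, gated by cell cycle genes and left out of the 4 classes, numbered 159, 167 and 120 in Control, CpG and R848. Their Cd40 stood at 38.6 CPM in Control (interval up to 49.0), 480 CPM with CpG (448 to 514) and 71.6 CPM with R848 (58.5 to 86.8), and their Cd200 at 6.82, 159 and 37.9 CPM. The mature marker Ccr7 stood at 34.1, 1398 and 333 CPM in the same cells and C1qa at 4684, 1641 and 4389 CPM, so the 3 groups did not hold the same mix of phagocytes; the part of this in the Cd40 values was not tested.

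B lineage cells held Cd83 at 153 CPM in Control (118 to 194), 96.7 CPM with CpG and 109.9 CPM with R848, levels near those of resting cDC1. Their Icosl stood at 7.04, 22.9 and 3.43 CPM, with intervals of 1.45 to 20.6, 10.5 to 43.5 and 0.416 to 12.4.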
